A study of Mus musculus with 4 samples.

Results

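Aquaporins are membrane channels that let water pass, and the aquaglyceroporins AQP3, AQP7 and AQP9 also let glycerol and urea pass. The urea transporters UT-B (Slc14a1) and UT-A (Slc14a2) carry urea across membranes down its gradient. Along the urinary tract these proteins are best known from the kidney, where they serve the concentration of urine, and AQP3 and UT-B are also known from the urothelium, the epithelium that lines the renal pelvis, ureter and bladder. The 10 genes described here, Aqp1, Aqp2, Aqp3, Aqp4, Aqp5, Aqp7, Aqp9, Aqp11, Slc14a1 and Slc14a2, were found by gene symbol in the annotation of the arrays. They were represented by 14 of the 39429 non-control probes and were 10 of the 29924 gene names on the array.

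Mouse ureters were explanted at postnatal day (P) 0 and cultured for 8 days with 2 µM purmorphamine, an agonist of SHH signalling, or with its solvent DMSO. Control ureters carried the label Pparg (fl/?), and Pparg-cKO ureters were Pax2-cre/+; Pparg (fl/fl). The paper describes Pax2-cre as recombining in the ureteric epithelium, the nephric duct and the collecting ducts of the kidney. Whether other tissue of the explants kept PPARG function was not tested. The ureters of all 4 groups came from NMRI outbred mice and were pooled by sex, and on each of the 4 arrays both treatments of a genotype and sex were hybridised together in different dyes. Each group therefore had n = 2 pools, a male and a female pool, and within a treatment sex, dye and replicate number cannot be told apart. Between 66.3% and 70.5% of the non-control spots were well above background per channel, 0 spots were saturated, and the number of arrays limits the precision.

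The single Pparg probe, at position 1562 of the transcript and thus outside the floxed exons near its start, does not check the deletion. Its scaled intensity was 10612 and 14540 in the male and female control pools with DMSO and 16971 and 17107 in the Pparg-cKO pools with DMSO (limma log2 fold change 0.51, adjusted p = 0.202). With purmorphamine it was 13234 and 13604 in control and 22405 and 24715 in Pparg-cKO, which passed as higher (0.88, adjusted p = 0.0496). Scaled intensities are the processed signals with the 75th percentile of each channel set to 1500 and a floor of 15, and they compare pools for a probe, not probes with each other. Log2 fold changes come from a fit of limma to all genes on separately normalised log2 levels, with p-values adjusted over 20231 tested genes.

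The explants held more than urothelium, and 2 pools stood apart in their cell type markers. The summed scaled intensity of 8 squamous markers was 83584 in the female Pparg-cKO pool with DMSO, against 2383 to 7293 in the other 7 pools. The sum of 7 fat cell markers was 8863 in the male Pparg-cKO pool with purmorphamine, against 42821 to 127559 in the other 7. Both Pparg-cKO arrays hold such a pool, and for the 10 genes the calls that were lost without either array are given with each gene. Of 51 calls of genes of the marker and pathway lists that involve Pparg-cKO pools, 28 were lost without the male and 31 without the female Pparg-cKO array, and 0 changed sign. In pooled tissue, fewer cells of a type and less RNA per cell cannot be told apart.

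All 10 genes had a probe that was well above background in all 8 channels, which held for 11 of the 14 probes. The exceptions were second probes of Aqp4 and Slc14a2, well above background in 7 channels, and a second probe of Aqp5, well above background in the 4 Pparg-cKO channels and in none of the control channels. In the other aquaporins on the array, Mip, Aqp6, Aqp8 and Aqp12, none of 6 probes was well above background in any channel.

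With DMSO, 4 of the 10 genes differed between genotypes: Aqp3 and Aqp7 were lower and Aqp5 and Slc14a2 were higher in Pparg-cKO. Among all tested genes 3.8% passed the same test, 1.96% with higher and 1.84% with lower expression. With purmorphamine the same 4 genes passed in the same directions, against 2.99% of all genes, 1.19% higher and 1.8% lower. These comparisons share no pool, but each set of pools comes from the same arrays. The median log2 fold change of the 10 genes was 0.03 with DMSO and -0.1 with purmorphamine, beside 0 over all genes in both.

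Purmorphamine lowered Aqp9 in control, where 1.42% of all genes passed, 0.356% higher and 1.07% lower. In Pparg-cKO it lowered Aqp5, Aqp9 and Slc14a2, against 4.89% of all genes, 1.94% higher and 2.95% lower. The median of the 10 genes was -0.14 in control, beside 0.02 over all genes, and -0.6 in Pparg-cKO, beside 0. Both comparisons between treatments share their DMSO pools with the comparison of genotypes. With processed signals in place of the corrected mean intensities, Aqp5 and Slc14a2 kept their calls between genotypes, and the other calls of the 10 genes were lost, at adjusted p of 0.0597 and 0.0726 for Aqp3, 0.123 and 0.104 for Aqp7, 0.159 and 0.101 for Aqp9 and, in Pparg-cKO, 0.0794 for Aqp5 and 0.143 for Slc14a2.

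**Figure D1:**
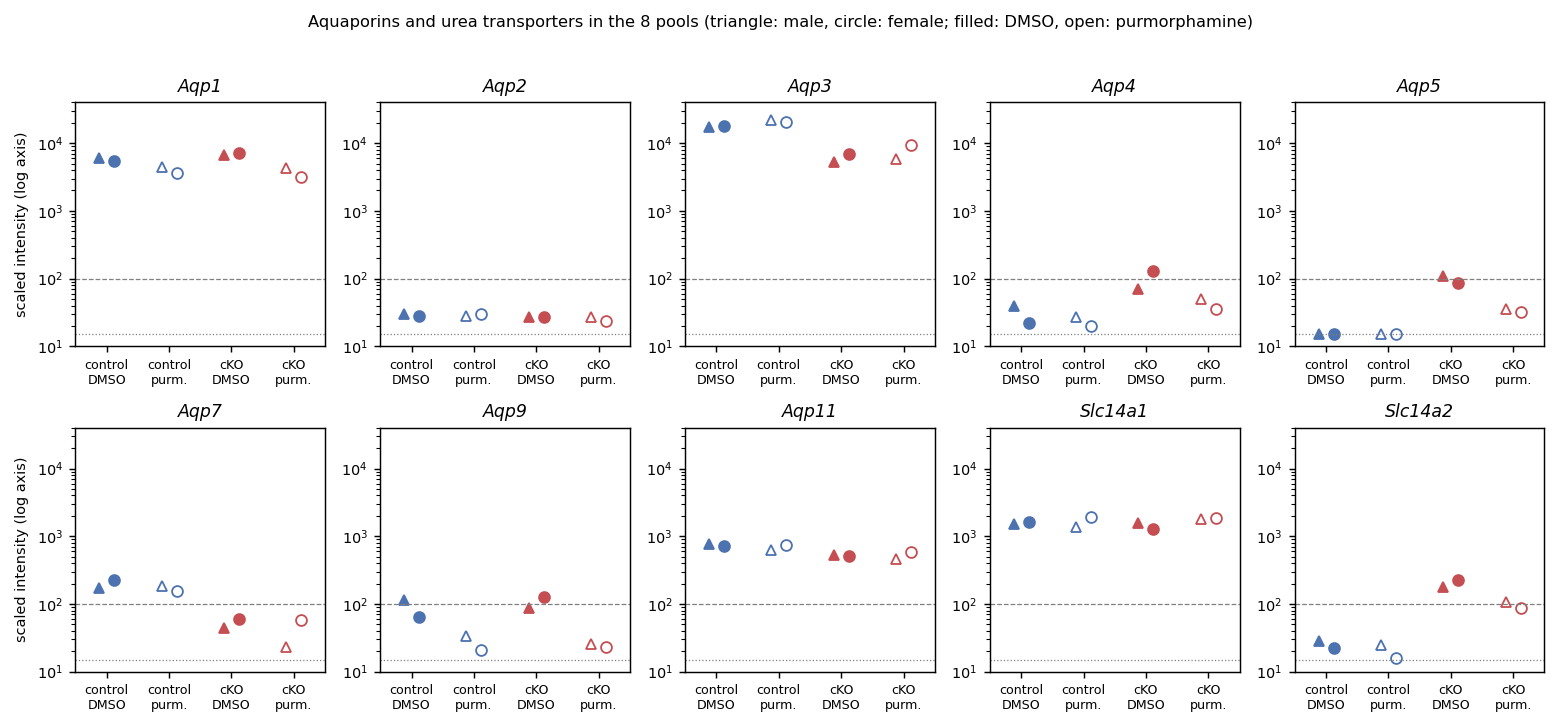
Scaled intensity (log axis) of the probe used for each of the 10 genes in the 8 pools, 2 per group; triangles are male and circles female pools, filled symbols DMSO and open symbols purmorphamine, blue control and red Pparg-cKO. The dashed line marks the intensity of 100 used in the study's filter and the dotted line the floor of 15. Aqp3, Aqp7 and Aqp11 lie lower and Slc14a2 and Aqp5 higher in all 4 Pparg-cKO pools than in all 4 control pools. Of these, Aqp11 passed in no comparison.

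**Figure D2:**
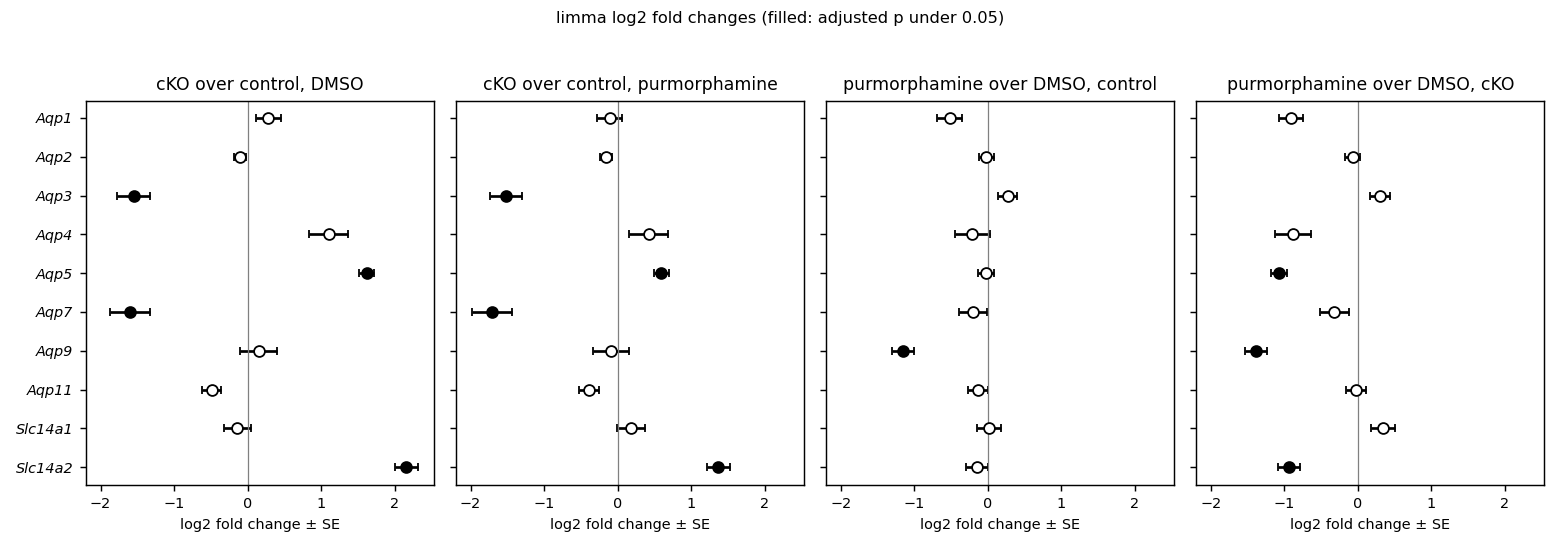
Log2 fold change ± SE from limma for the 10 genes in the 4 comparisons (n = 2 pools per group), with filled symbols where the adjusted p was under 0.05. Filled symbols are Aqp3, Aqp5, Aqp7 and Slc14a2 in both comparisons of genotypes, Aqp9 in control, and Aqp5, Aqp9 and Slc14a2 in Pparg-cKO.

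Among the aquaglyceroporins, Aqp3 encodes the channel of basal and lateral membranes in many epithelia, and its probe lies at chr4:41039962-41040021 (mm9). In control its scaled intensity was 17516 and 17725 with DMSO and 22131 and 20612 with purmorphamine, in the male and female pool. In Pparg-cKO it was 5245 and 6810 with DMSO and 5784 and 9495 with purmorphamine. All 4 Pparg-cKO pools lay under all 4 control pools. The ratio of control to Pparg-cKO was 3.34 in male and 2.6 in female pools with DMSO, and 3.83 and 2.17 with purmorphamine.

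On the normalised log2 scale Aqp3 was 15.52 ± 0.155 (SD, n = 2) in control and 13.96 ± 0.217 in Pparg-cKO with DMSO, a log2 fold change of -1.55 (SE 0.221, adjusted p = 0.0154, limma). With purmorphamine the levels were 15.78 ± 0.0314 and 14.26 ± 0.473, with a log2 fold change of -1.52 (adjusted p = 0.0227). Purmorphamine itself gave log2 fold changes of 0.27 in control and 0.3 in Pparg-cKO (adjusted p = 0.356 and 0.282), so that neither passed the test. Ordered by level, control with purmorphamine stood highest, then control with DMSO, which did not differ by the test, and the 2 Pparg-cKO groups followed with overlapping pools. Without 1 control array the call for DMSO was lost, at -1.66 without the male (adjusted p = 0.121) and -1.44 without the female array (adjusted p = 0.171). The call for purmorphamine was lost without the male control (-1.55, adjusted p = 0.164), the female control (-1.5, adjusted p = 0.208) or the male Pparg-cKO array (-1.19, adjusted p = 0.0771). With the replicate block the adjusted p was 0.0516 with DMSO and 0.0776 with purmorphamine.

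Markers of superficial urothelial cells moved with Aqp3 between genotypes. With DMSO 4 of 6, Krt20, Upk1a, Upk1b and Upk3b, were lower in Pparg-cKO and none was higher, and their summed intensity fell from 68049 and 77194 to 41080 and 38818. With purmorphamine 2 of 6, Krt20 and Upk3b, were lower. With either Pparg-cKO array left out Krt20 and Upk3b kept their calls with DMSO and Upk1a and Upk1b lost theirs, and with purmorphamine Krt20 lost its call without the male array and Upk3b with either left out. Purmorphamine raised 1 of the 6, Upk1b, in control and 5 in Pparg-cKO, of which Upk2 lost its call with either Pparg-cKO array left out and Upk3b without the female one. The call of Upk1b in control was lost in a fit with 1 array left out. Upk1b, which encodes a plaque protein of the apical membrane, had a scaled intensity of 4023 and 4208 with DMSO and 12352 and 15175 with purmorphamine in Pparg-cKO, with a log2 fold change of 1.72 (adjusted p = 0.0151). The probe of Upk3a gave the strongest signal of the 6 in all 8 pools. Of 4 basal cell markers, of which the probe of Krt5 gave the strongest signal in all 8 pools, none passed with DMSO and Trp63 was lower in Pparg-cKO with purmorphamine (log2 fold change -1.11, adjusted p = 0.0113), though not without the male Pparg-cKO array (adjusted p = 0.105). Their summed intensity ranged from 30262 to 95736, the highest in the female Pparg-cKO pool with DMSO. The part of these cells in the result for Aqp3 was not tested. By RNA in situ hybridization in fetal ureters, the paper names Aqp3 beside genes expressed throughout the urothelium and calls it weakly affected in the mutant.

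Aqp7 encodes the glycerol channel through which fat cells release glycerol, and its probe lies near that of Aqp3, at chr4:40980431-40980490 (mm9). Its scaled intensity in control was 170 and 223 with DMSO and 182 and 155 with purmorphamine. In Pparg-cKO it was 44 and 59 with DMSO and 23 and 57 with purmorphamine. All control pools were above 100 and all Pparg-cKO pools below it, without overlap. The ratio of control to Pparg-cKO was 3.91 and 3.76 with DMSO in the male and female pools, and 7.74 and 2.71 with purmorphamine.

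The log2 fold change of Aqp7 was -1.6 with DMSO (SE 0.274, adjusted p = 0.0291, levels 9.3 ± 0.216 and 7.7 ± 0.241) and -1.71 with purmorphamine (adjusted p = 0.0295, levels 9.09 ± 0.188 and 7.38 ± 0.572). Purmorphamine gave -0.2 in control and -0.32 in Pparg-cKO, neither of which passed (adjusted p = 0.647 and 0.432). Without the male Pparg-cKO array, which holds the pool with the low fat cell markers, the log2 fold change was -1.43 with DMSO (adjusted p = 0.0429) and -1.31 with purmorphamine (adjusted p = 0.11). Without the male or the female control array the adjusted p was 0.145 and 0.2 with DMSO (-1.75 and -1.45) and 0.19 and 0.194 with purmorphamine (-1.58 and -1.84). With the replicate block it was 0.13 and 0.134.

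Fat cell markers were lower in value in the same pools as Aqp7, but none of the 6 tested passed limma in any comparison. By the study's filter, a 1.5-fold change on both arrays with a pool above an intensity of 100, Adipoq, Cidec, Fabp4, Plin1 and Retn were lower with DMSO and Adipoq, Cidec, Plin1 and Retn with purmorphamine. Their summed intensity was 109823 and 127559 in control with DMSO and 60028 and 42821 in Pparg-cKO with DMSO, with the strongest probe signal from Cfd or Fabp4 in each of the 8 pools. With purmorphamine it was 108179 and 79710 in control and 8863 and 57429 in Pparg-cKO. The adiponectin gene Adipoq was well above background in all pools, with a scaled intensity of 18331 and 23520 in control and 7604 and 5714 in Pparg-cKO with DMSO. Lep, the leptin gene, was at the floor in all 8 pools. The part of fat cells in the result for Aqp7 was not tested.

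Of 10 tested genes of glycerol and triglyceride handling 4 fell in Pparg-cKO with DMSO, namely Agpat2 and Gpam, which act in glycerolipid synthesis, and Lipe and Pnpla2, which encode lipases that free fatty acids from stored fat. None rose, 3 of the 10 were higher in value, and the median log2 fold change was -0.77. With purmorphamine Agpat2, Gpam and Lipe were lower, none passed as higher and 4 of the 10 were higher in value, with a median of -0.79. Lipe, the hormone-sensitive lipase gene, had scaled intensities of 1648 and 2323 in control and 516 and 658 in Pparg-cKO with DMSO, a log2 fold change of -1.71 (adjusted p = 0.0381). Without the male Pparg-cKO array all 4 calls with DMSO were lost (adjusted p = 0.0686 for Lipe, 0.101 for Gpam, 0.112 for Pnpla2 and 0.15 for Agpat2), as they were without the female one (0.0501, 0.141, 0.154 and 0.173). The calls with purmorphamine were lost without the male array, and without the female array only that of Lipe was kept (adjusted p = 0.0348). The cytosolic glycerol phosphate dehydrogenase gene Gpd1 was 17117 and 22521 in control and 5300 and 4770 in Pparg-cKO with DMSO, and did not pass (-1.95, adjusted p = 0.344). Pck1 was at 1693 and 2491 in control and 166 and 264 in Pparg-cKO with DMSO, and did not pass limma either. By the study's filter Agpat2, Gpam, Gpd1, Lipe and Pck1 were lower in Pparg-cKO with both treatments, and Pnpla2 with DMSO. In the pool with the low fat cell markers Gpd1 was at 827. Purmorphamine in Pparg-cKO raised Mgll, which encodes monoglyceride lipase (0.92, adjusted p = 0.0412), and lowered the glycerol kinase gene Gyk (-0.63, adjusted p = 0.0464), and both calls were lost with either Pparg-cKO array left out.

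Aqp3 and Aqp7 were the members that fell together, and both lie on chromosome 4, so the 250 bases before their annotated starts are shown from RefSeq (GRCm38.p6). PPARG binds DNA with the retinoid X receptor, typically at direct repeats such as AGGTCANAGGTCA. On either strand, a stretch with at most 2 mismatches to these 13 letters occurred in 3.24% of 32851 promoters, and a single AGGTCA, part of that repeat, in 14% of them. The stretch is in capitals, and it reads AGGTCAGAGGTGG on the strand of the repeat, beginning 56 bases before the more upstream of the 2 listed starts of Aqp7.
Aqp7, chr4:41048137-41048386, minus strand: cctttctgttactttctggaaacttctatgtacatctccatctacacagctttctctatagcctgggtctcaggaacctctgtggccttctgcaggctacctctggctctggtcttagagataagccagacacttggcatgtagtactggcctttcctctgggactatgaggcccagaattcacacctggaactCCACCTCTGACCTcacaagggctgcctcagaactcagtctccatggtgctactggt
Aqp3, chr4:41098184-41098433, minus strand: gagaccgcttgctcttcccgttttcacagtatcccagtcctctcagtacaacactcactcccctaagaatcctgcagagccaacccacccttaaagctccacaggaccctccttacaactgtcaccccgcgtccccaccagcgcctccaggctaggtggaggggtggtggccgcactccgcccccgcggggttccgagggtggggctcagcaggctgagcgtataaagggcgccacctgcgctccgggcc
The window of Aqp3 held no AGGTCA and differed from the repeat by at least 5 letters throughout. These are matches of letters in a short window and describe neither a binding site nor its absence elsewhere.

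Aqp9 encodes an aquaglyceroporin known from liver and from myeloid cells, and its probe lies at chr9:70978252-70978311 (mm9). Its scaled intensity with DMSO was 116 and 64 in control and 86 and 125 in Pparg-cKO, in the male and female pool. With purmorphamine it was 34 and 21 in control and 26 and 23 in Pparg-cKO. All 4 purmorphamine pools lay under all 4 DMSO pools, while the genotypes overlapped within each treatment. The ratio of DMSO to purmorphamine on an array was 3.44 and 3.09 in control and 3.35 and 5.4 in Pparg-cKO.

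The log2 fold change of Aqp9 with purmorphamine was -1.15 in control (SE 0.151, adjusted p = 0.0478) and -1.39 in Pparg-cKO (SE 0.151, adjusted p = 0.0214), with levels of 8.3 ± 0.426 and 7.15 ± 0.267 in control and 8.46 ± 0.362 and 7.06 ± 0.0349 in Pparg-cKO. Genotype gave 0.15 with DMSO and -0.09 with purmorphamine, far from the threshold (adjusted p = 0.858 and 0.93). Aqp9 did not pass the study's own filter, since in each genotype 1 array had no pool above an intensity of 100. Without the male or the female control array the result in control was -1.04 (adjusted p = 0.173) and -1.27 (adjusted p = 0.115), and without the female Pparg-cKO array that in Pparg-cKO was -1.16 (adjusted p = 0.0947). With the replicate block, here a dye term, the adjusted p was 0.0728 in control and 0.041 in Pparg-cKO.

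Leukocyte markers were lower in value with purmorphamine as well. The sum of 5 markers was 74418 and 55679 with DMSO and 55236 and 37795 with purmorphamine in control, and 69279, 57736, 43974 and 46119 in the same order in Pparg-cKO. The probe of the lysozyme gene Lyz2 gave the strongest signal of the 5 in all 8 pools. Of the 5, Adgre1, which encodes the macrophage antigen F4/80, fell in Pparg-cKO (-1.06, adjusted p = 0.0379). This call was lost without the male (adjusted p = 0.108) or the female Pparg-cKO array (adjusted p = 0.0638). In control it had a log2 fold change of -1.12 (adjusted p = 0.0549), and none of the other 4 passed limma in either genotype. By the study's filter Adgre1 and Csf1r fell with purmorphamine in both genotypes and Ptprc in control. The part of leukocytes in the result for Aqp9 was not tested.

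**Figure D3:**
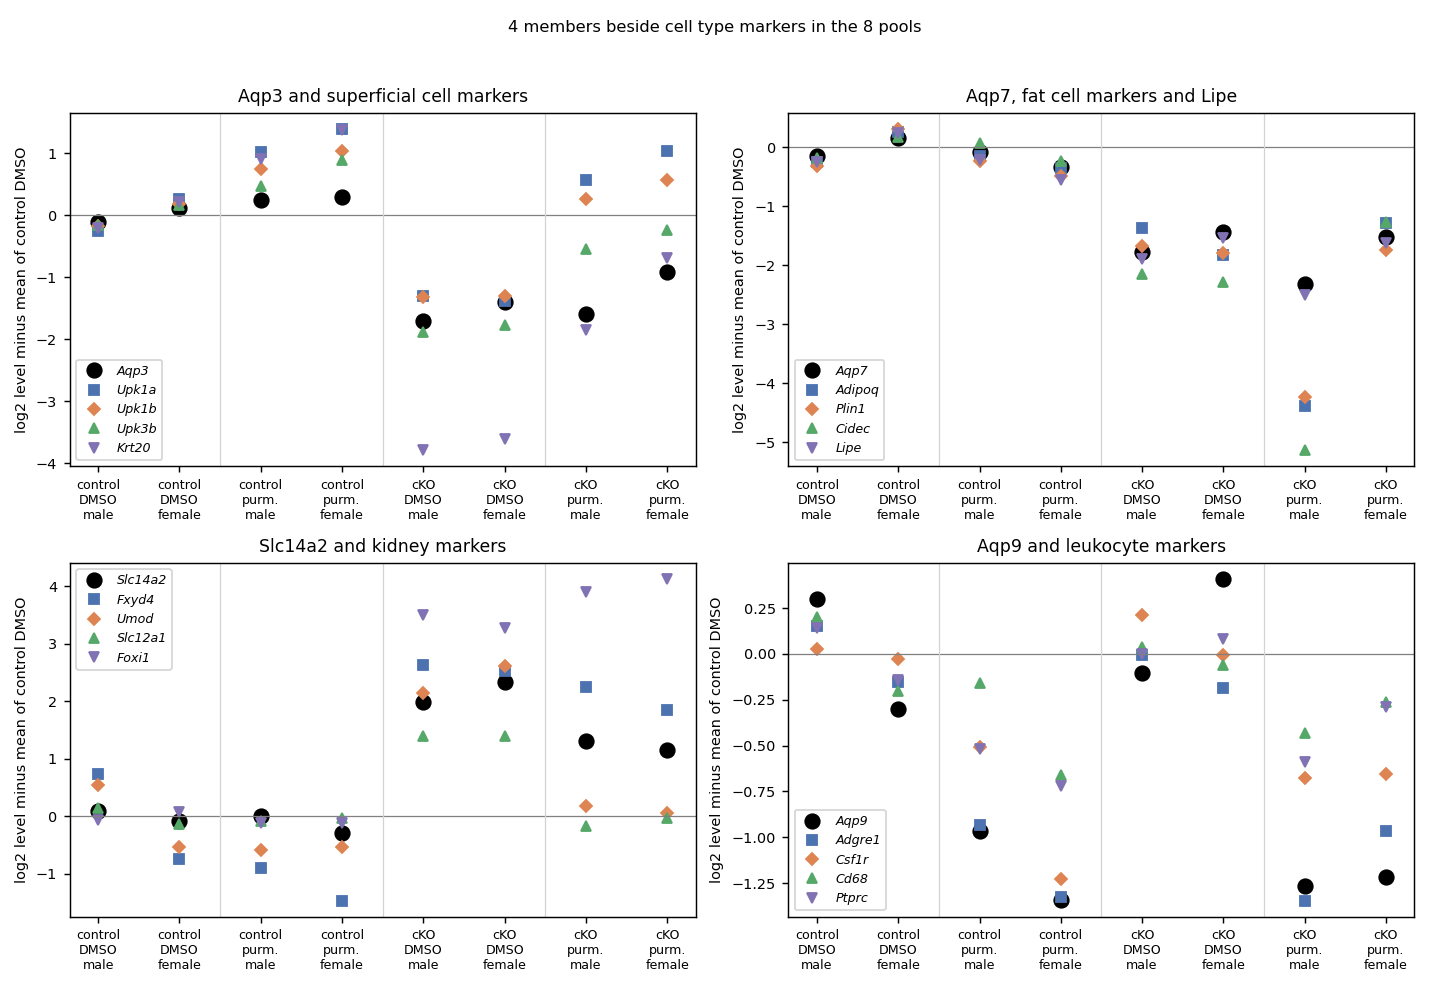
Log2 level of Aqp3, Aqp7, Slc14a2 and Aqp9 (black) and of 4 genes of a marker list beside each, in the 8 pools and relative to the mean of the 2 control pools with DMSO; Lipe is from the glycerol list. Aqp7 is low in all 4 Pparg-cKO pools, the fat cell markers are lowest in the male Pparg-cKO pool with purmorphamine, and Umod and Slc12a1 are raised over the control mean in the 2 Pparg-cKO pools with DMSO while Foxi1 is raised in all 4 Pparg-cKO pools. The kidney markers drawn all passed as higher in Pparg-cKO with DMSO, and others of their list were lower in value.

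Among the channels for water alone, Aqp5, known from glands and lung, was close to background in control. Its probe at chr15:99425138-99425197 (mm9) was at the floor of 15 in all 4 control pools, although its spots there were classed as well above background. In Pparg-cKO its scaled intensity was 108 and 85 with DMSO and 35 and 32 with purmorphamine. The 3 levels were separate, control lowest, Pparg-cKO with purmorphamine between, and Pparg-cKO with DMSO highest. On the normalised log2 scale they were 6.71 ± 0.0656 and 6.67 ± 0.023 in control with DMSO and purmorphamine, and 8.33 ± 0.149 and 7.27 ± 0.0116 in Pparg-cKO.

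Aqp5 was higher in Pparg-cKO by a log2 fold change of 1.62 with DMSO (SE 0.102, adjusted p = 0.00118) and 0.59 with purmorphamine (adjusted p = 0.0361). Purmorphamine lowered it in Pparg-cKO (-1.07, SE 0.11, adjusted p = 0.0202) and gave -0.03 in control (adjusted p = 0.913). The offset in the fit draws dim probes together. Over the alternatives the values of Aqp5 between genotypes ranged from 1.43 to 2.68 with DMSO and from 0.58 to 1.16 with purmorphamine. The second Aqp5 probe, at chr15:99424655-99424714, was not well above background in control, and by it Pparg-cKO was at least 2.2-fold higher with DMSO and at least 1.46-fold higher with purmorphamine. These bounds set the mean of the Pparg-cKO pools against the higher of the dim signal and the lowest signal well above background per array. Without the female control array the call with DMSO was lost (1.58, adjusted p = 0.0557). The call with purmorphamine was lost without any single array (0.58 to 0.61, adjusted p = 0.175 to 0.247) and with the replicate block (adjusted p = 0.0935). The effect of purmorphamine lost its call without the male (-0.95, adjusted p = 0.0636) or the female Pparg-cKO array (-1.18, adjusted p = 0.0829). The neighbouring genes Aqp2 and Aqp6 on chromosome 15 did not follow, since Aqp6 was not well above background and Aqp2 passed in no comparison.

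Aqp2 encodes the water channel that vasopressin moves to the apical membrane of collecting duct cells. Its scaled intensity stayed between 24 and 30 in all 8 pools, and its log2 fold changes lay between -0.16 and -0.02. The vasopressin receptor gene of the collecting duct, Avpr2, was at or near the floor in all pools, with its highest scaled intensity of 19 in the male Pparg-cKO pool with DMSO. Of 15 genes of vasopressin signalling and water channel trafficking none passed between genotypes. Avpr1a, which encodes the vascular vasopressin receptor, rose with purmorphamine in Pparg-cKO (0.92, adjusted p = 0.037, and 0.277 without the female array) and was the only gene of the 15 to pass with purmorphamine in either genotype.

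Aqp4, known from astrocytes and collecting duct, had a scaled intensity of 40 and 22 in control and 70 and 130 in Pparg-cKO with DMSO. With purmorphamine it was 27 and 20 in control and 50 and 35 in Pparg-cKO. The DMSO pools of the genotypes did not overlap, but the log2 fold change of 1.1 did not pass (SE 0.269, adjusted p = 0.0892). With 1 array left out it lay between 0.72 and 1.48. The log2 fold change of -0.88 with purmorphamine in Pparg-cKO did not pass either (adjusted p = 0.118). It passed only without the male Pparg-cKO array (-1.36), and was -0.4 without the female one. The second Aqp4 probe gave log2 differences of 0.91 and -1.02 for these comparisons.

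Aqp1, the water channel of endothelium and red blood cells, was a bright probe at chr6:55298480-55298539 (mm9). Its scaled intensity with DMSO was 6084 and 5413 in control and 6603 and 7182 in Pparg-cKO. With purmorphamine it was 4513 and 3570 in control and 4301 and 3135 in Pparg-cKO, so that all 4 purmorphamine pools were below all 4 DMSO pools. The log2 fold change with purmorphamine was -0.52 in control (adjusted p = 0.19) and -0.91 in Pparg-cKO (SE 0.167, adjusted p = 0.0534), and neither passed limma. The latter passed with a replicate block (adjusted p = 0.0469) and without the male Pparg-cKO array (-1.19), but not without the female one (-0.62). It met the study's filter of a 1.5-fold change on both arrays. Genotype gave 0.28 with DMSO and -0.11 with purmorphamine (adjusted p = 0.529 and 0.855).

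Endothelial markers did not fall with Aqp1. All 6 were higher in value with purmorphamine in both genotypes, with a median log2 fold change of 1 in control and 0.8 in Pparg-cKO. Tek, an endothelial receptor gene, rose in control (1.26, adjusted p = 0.0422) and in Pparg-cKO (2, adjusted p = 0.0151), and Cdh5, the gene of VE-cadherin, rose in Pparg-cKO (1.25, adjusted p = 0.0439). Between genotypes only Kdr passed limma, higher in Pparg-cKO with DMSO (0.88, adjusted p = 0.0367). Cdh5 and Kdr lost these calls with either Pparg-cKO array left out, and Tek lost its call in control in a fit with 1 array left out. The summed intensity of 5 red blood cell genes was 79 to 278, highest in the female Pparg-cKO pool with DMSO, and Slc4a1 was at the floor in all pools. The part of endothelial and red blood cells in the values of Aqp1 was not tested. All 5 smooth muscle markers were higher in value with purmorphamine in both genotypes, and none passed limma. By the study's filter Cnn1 and Des rose with purmorphamine in control and Acta2, Des and Myh11 in Pparg-cKO.

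Aqp11 encodes a channel of intracellular membranes whose loss causes cystic kidneys in mice. Its scaled intensity was 759 and 725 in control and 528 and 519 in Pparg-cKO with DMSO, and 627, 739, 468 and 588 with purmorphamine in the same order. The Pparg-cKO pools were lower throughout, by 1.44 and 1.4 times with DMSO, but the log2 fold changes of -0.49 and -0.39 did not pass (SE 0.134, adjusted p = 0.127 and 0.227). The second Aqp11 probe gave -0.48 and -0.4.

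Of the urea transporters, Slc14a1 differed in no comparison. Its scaled intensity ranged from 1277 to 1897 over the 8 pools, and its log2 fold changes lay between -0.14 and 0.34 with adjusted p from 0.314 to 0.968. Its neighbour on chromosome 18, Slc14a2, was low in control and higher in Pparg-cKO. Its scaled intensity in control was 28 and 22 with DMSO and 25 and 16 with purmorphamine. In Pparg-cKO it was 179 and 227 with DMSO and 106 and 88 with purmorphamine, so that the control, the purmorphamine and the DMSO values of Pparg-cKO formed 3 separate levels. The ratio of Pparg-cKO to control was 6.38 and 10.5 with DMSO in the male and female pools and 4.33 and 5.41 with purmorphamine.

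The log2 fold change of Slc14a2 was 2.16 with DMSO (SE 0.161, adjusted p = 0.00222, levels 7.12 ± 0.128 and 9.28 ± 0.247) and 1.37 with purmorphamine (adjusted p = 0.0135, levels 6.97 ± 0.203 and 8.34 ± 0.108). Purmorphamine lowered it in Pparg-cKO (-0.94, SE 0.15, adjusted p = 0.0416) and gave -0.15 in control (adjusted p = 0.677). Over the alternatives the values between genotypes ranged from 1.99 to 3.03 with DMSO and from 1.13 to 2.27 with purmorphamine. A second probe, designed to another Slc14a2 transcript, was at 47 and 15 in control and 130 and 427 in Pparg-cKO with DMSO, and at 15, 15, 45 and 35 with purmorphamine in the same order. It gave 2.28 for genotype with DMSO and -2.04 for purmorphamine in Pparg-cKO. In control with purmorphamine it was at the floor in both pools and well above background in 1 of the 2, so no fold change is given for genotype there. With the mean of both probes the effect of purmorphamine in Pparg-cKO (adjusted p = 0.059) and the difference between genotypes with purmorphamine (adjusted p = 0.136) did not pass. Without the female control array the call with DMSO was lost (2.07, adjusted p = 0.0566). That with purmorphamine was lost without the male control (1.51, adjusted p = 0.103), the female control (1.23, adjusted p = 0.152) or the male Pparg-cKO array (1.29, adjusted p = 0.0865), and with the replicate block (adjusted p = 0.0896). The effect of purmorphamine lost its call without the female Pparg-cKO array (-0.69, adjusted p = 0.291) and without either control array (adjusted p = 0.0562).

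Of 11 tested kidney markers 6 were higher in Pparg-cKO with DMSO, among them Foxi1, Fxyd4, Nphs1, Slc12a1 and Umod, and none passed as lower. With DMSO 2 of the 11 were lower in value. Scnn1g, a collecting duct marker at the floor in these pools, had log2 levels of 6.65 and 6.6 in control and 6.28 and 6.1 in Pparg-cKO. With purmorphamine 2 of 11, Foxi1 and Fxyd4, were higher and none passed as lower. Of the 11, 3 were lower in value, and the median was 0.14 on the log2 scale. The summed intensity of the 14 markers on the array was 1321 and 602 in control and 6318 and 5989 in Pparg-cKO with DMSO, and 524, 421, 4053 and 3225 with purmorphamine in the same order, with the strongest probe signal from Fxyd4 in all 8 pools. Umod, a gene of the thick ascending limb, was well above background in 1 of 2 control pools with DMSO and had a log2 fold change of 2.37 (adjusted p = 0.0143). Slc12a1, of the same segment, and Nphs1 were not well above background in control with DMSO, and Pparg-cKO was at least 2.33-fold and 1.85-fold higher. Both were tested only because they were well above background in the Pparg-cKO pools with DMSO. Umod likewise entered the test only through Pparg-cKO pools. The calls of these genes, counted above, therefore describe the pools that selected them and are no separate result. Purmorphamine lowered 4 of the 11 in Pparg-cKO, among them Umod (-2.25, adjusted p = 0.0304). Slc12a1 and Nphs1 were not well above background there with purmorphamine, and were at least 2.34-fold and 1.82-fold lower. Their selection through the Pparg-cKO pools with DMSO favoured such a fall, so these calls are no separate result either. Without the male Pparg-cKO array the calls of Nphs1 were lost, as was that of Umod with DMSO, and without the female one both calls of Umod and those of Slc12a1 and Nphs1 with purmorphamine. Foxi1 and Fxyd4, genes of intercalated and principal cells, had log2 fold changes of 4.13 and 3.23 with purmorphamine between genotypes (adjusted p = 0.000269 and 0.0198), and Fxyd4 lost its calls with DMSO (adjusted p = 0.142 without the male and 0.159 without the female array) and with purmorphamine (0.17 and 0.0786) when either Pparg-cKO array was left out. The defining markers Slc12a3, Calb1 and Atp6v1g3 were at the floor in all 8 pools. The part of kidney cells in the results for Slc14a2, Aqp5 and Aqp4 was not tested.

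None of the 10 genes passed the test of a difference in the effect of purmorphamine between genotypes, in which 0% of all genes passed with limma and 667 of 20231 had an unadjusted p under 0.05. The difference was -1.03 for Aqp5 (SE 0.156, unadjusted p = 0.00121, adjusted p = 0.858) and -0.79 for Slc14a2 (SE 0.212, unadjusted p = 0.0137, adjusted p = 1). For both, the log2 change on each Pparg-cKO array was larger than on each control array, at -1.18 and -0.951 against -0.0651 and -0.00485 for Aqp5 and at -0.69 and -1.19 against -0.096 and -0.201 for Slc14a2. In the control pools Aqp5 was at the floor of 15 and Slc14a2 at 16 to 28, so a fall there could hardly be measured. These values per array therefore cannot show whether the effect differed between genotypes. For Aqp3, Aqp7 and Aqp9 the difference was 0.03, -0.11 and -0.24, each within 2 SE.

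By the study's filter, a 1.5-fold change on both arrays with a pool above an intensity of 100, Aqp3, Aqp7 and Slc14a2 changed with DMSO between genotypes, where 2.84% of the 29924 genes changed. With purmorphamine Aqp3 and Aqp7 changed (3.21% of genes). None of the 10 changed with purmorphamine in control (3.3%), and Aqp1 and Slc14a2 decreased in Pparg-cKO (4.46%). Aqp5 did not meet it with DMSO because its female Pparg-cKO pool was at 85.

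Across the 8 channels, the genes whose log2 levels ran most like a member are given by Pearson's r, as a description of 8 values that share arrays and dyes. For Aqp3 they were Enho (0.996), Baiap3 (0.995) and Tex2 (0.994). For Aqp7 they were Bscl2, Slc25a10 and Lipe (each 0.996). Bscl2 encodes seipin, a protein of lipid droplets. For Aqp9 they were Ltb4r1 (0.999), Kmo (0.995) and Abcb1b (0.994), and Ltb4r1 is a leukotriene receptor gene of leukocytes. For Slc14a2 they were Adgrf1 (0.994), Ces1e and Slco4c1 (each 0.991). For Aqp5 they were D730048I06Rik (0.997), a probe with no gene symbol (0.995) and Gm609 (0.992). These genes were picked for their likeness to a member, so their changes are no separate result.

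Other genes that bear on water, salt and urea mostly did not pass. Of 8 genes of the response to tonicity and of osmolyte transport, Trpv4, an ion channel gene, was the only 1 to pass in any comparison. Its scaled intensity was 1726 and 1858 in control and 858 and 719 in Pparg-cKO with DMSO (log2 fold change -1.17, adjusted p = 0.0055), and with purmorphamine the change was -1.24 (adjusted p = 0.00779). The call with DMSO was lost without the female (adjusted p = 0.0557) and that with purmorphamine without the male Pparg-cKO array (adjusted p = 0.0662). Of 8 tested genes of urothelial ion transport, Scnn1a, a subunit gene of the epithelial sodium channel, was higher in Pparg-cKO with DMSO (0.74, adjusted p = 0.0366) and purmorphamine (0.85, adjusted p = 0.0292). Atp1b1, a sodium pump subunit gene, was higher with DMSO (0.62, adjusted p = 0.0442). The calls of Scnn1a and Atp1b1 were lost with either Pparg-cKO array left out (adjusted p = 0.0544 to 0.274). Of 5 tested genes of urea synthesis, Cps1 was higher in Pparg-cKO with purmorphamine (1.02, adjusted p = 0.0248), at a scaled intensity of 50 and 58 against 15 and 17 in control, and lost its call with either Pparg-cKO array left out (adjusted p = 0.152 and 0.148).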

How the data were processed

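Labelled RNA of 8 pools of cultured ureters was hybridised by the authors to 4 two-colour Agilent arrays. Per the labels and file headers, images were read with Agilent Feature Extraction (version 10.7.3.1 in the submitters' processing notes), which gave mean, background and processed intensity values per spot, deposited without normalization between arrays. The deposited series table holds signed fold change scores of purmorphamine over DMSO per array, rounded by the authors, with a median log2 value of 0 on each array; they correlated with the ratios computed here (Pearson's r 0.958 to 0.971 over probes), which sets their direction, and how they were normalised stays unknown. They served only as an alternative. Samples were grouped by genotype from their titles, and channels by treatment from the channel labels.

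Mean intensities were corrected with normexp (offset 50), loess-normalised within arrays with control and outlier spots at weight 0, averaged over the 4 spots of a probe, and Aquantile-normalised between arrays (R 4.3.3, limma 3.58.1). A probe was tested if some group had it well above background in its male and its female pool (27066 probes, 20231 genes), and the brightest such probe stood for a gene. Genotypes were compared by a separate-channel fit (intraspot correlation 0.0553 from 4000 probes) and treatments by the ratios within arrays, with eBayes and Benjamini-Hochberg adjustment at 0.05. The fits were tested on simulated data. For the study's filter, processed signals were scaled per channel to a 75th percentile of 1500 with a floor of 15. The pools are not stated to come from separate cultures beyond the sorting by sex, so p-values measure the spread between these pools. Number, sex and dye coincide. Where an array was left out, the lone pool was assumed to vary like the other groups' pools, and the intraspot correlation of all 4 arrays was kept.

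Named genes were the 10 members, the list genes that passed a test with defining markers, and the 3 genes most like each member that passed. The members, the lists and the tests were chosen with earlier results of these data known. Lists: superficial (Upk1a, Upk1b, Upk2, Upk3a, Upk3b, Krt20), basal (Krt5, Krt14, Krt15, Trp63), squamous (Krt1, Krt10, Lor, Krt16, Krt6a, Krt6b, Krtdap, Dsg1a), fat cell (Adipoq, Plin1, Cidec, Lep, Fabp4, Retn, Cfd), kidney (Hsd11b2, Avpr2, Scnn1g, Fxyd4, Atp6v1g3, Foxi1, Umod, Slc12a1, Slc12a3, Lrp2, Slc34a1, Nphs1, Calb1), endothelial (Pecam1, Cdh5, Kdr, Emcn, Tie1, Tek), leukocyte (Ptprc, Cd68, Lyz2, Csf1r, Adgre1), red blood cell (Hbb-b1, Hba-a1, Alas2, Slc4a1), smooth muscle (Acta2, Myh11, Cnn1, Tagln, Des), glial (Sox10, S100b, Gfap) and mesothelial (Msln, Wt1, Lrrn4, Bnc1) markers. Some list genes that entered the counts and sums are not reported here by name. Avpr2 also stands in the vasopressin list and Scnn1g in that of ion transport. Promoter sequences are RefSeq's (GRCm38.p6), found by symbol for 7 of the 10 genes; probe positions are those of the files (mm9).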

Additional observations from a re-analysis of the deposited data

How the results depend on the processing

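No result that passed changed its direction: of 140 values of the 12 passing results of single genes under the alternatives, 81 kept their call and 59 lost it, in each case with the cause not tested. Of the values of members that did not pass, 427 did not pass under the alternatives either, 3 passed, and 26 changed sign without passing. With 2 pools per group there are few degrees of freedom, and the offset shrinks the folds of probes with pools under an intensity of 100, which were those of Aqp2, Aqp4, Aqp5, Aqp7, Aqp9 and Slc14a2.

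The number of genes that passed was 769 with DMSO and 605 with purmorphamine between genotypes, and 288 in control and 989 in Pparg-cKO with purmorphamine. With processed signals scaled to the 75th percentile it was 498, 228, 0 and 0, and the authors' fold changes gave 0 and 0 for purmorphamine. With no filter on dim probes, purmorphamine gave 13 and 310. There the calls of Aqp7 (adjusted p = 0.0561 and 0.0544), of Aqp9 (0.0951 and 0.0511) and of Slc14a2 with purmorphamine in Pparg-cKO (0.0779) were lost. With the replicate block it was 333, 147 and 172 (818 in Pparg-cKO). Same-numbered pools deviated with a correlation of -0.149 between genotypes with DMSO and 0.47 with purmorphamine, and the labels give same-numbered pools nothing in common but sex and dye. Crossing the numbers, a step chosen after seeing the data, gave 209 and 25. The block left the members Aqp5 and Slc14a2 as calls with DMSO and none with purmorphamine between genotypes. Leaving out 1 array gave 39 to 425, 17 to 327, 0 to 579 and 148 to 1065 genes, and 0 to 38 for the difference in effect, where 38 came without the male Pparg-cKO array. By the study's filter (849, 962, 988 and 1335 genes), a 2-fold threshold gave 405, 357, 300 and 470, and median scaling 1660, 1779, 1688 and 2195. With 1 array pair, it gave 2372 to 2394, 1620 to 1878, 2476 to 2633 and 1887 to 3010.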

Other observations

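Of the marker lists not described with a member, 4 of 5 glial markers were tested and gave no call in any comparison, with medians between -0.17 and 0.29. Of 4 mesothelial markers, of which 3 were tested, Msln was higher in Pparg-cKO with both treatments, at 66 and 72 in control and 5337 and 3835 in Pparg-cKO with DMSO (log2 fold change 5.57, limma adjusted p = 0.000971). In Pparg-cKO purmorphamine lowered Wt1 (-2.75, adjusted p = 0.0304), with -1.97 without the male and -3.53 without the female array. It also lowered Bnc1, whose spots were then no longer well above background, by at least 2.38-fold (limma adjusted p = 0.0234, and 0.0783 without the female array). Bnc1 entered the test only through DMSO pools, a selection that favoured such a fall, so its call is no separate result. Wt1 is also a gene of podocytes.

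Of 8 squamous markers 7 were tested and none passed limma between genotypes, with a median of 2.46 with DMSO. Krt16, for example, was at 648 in the male and 23161 in the female Pparg-cKO pool with DMSO and at 418 and 196 in control. By the study's filter Krt16, Krt6b and Lor were higher in Pparg-cKO with DMSO, and Lor with purmorphamine. Krt6a fell with purmorphamine in Pparg-cKO (-1.69, adjusted p = 0.0416), but not without the female array (-1.13, adjusted p = 0.0898). Krt15, a basal cell keratin gene, fell with purmorphamine in control (-1.67, adjusted p = 0.0345) and in Pparg-cKO (-1.4, adjusted p = 0.0237). The call in control was lost in a fit with 1 array left out, and that in Pparg-cKO without the female Pparg-cKO array (-1.11).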
